A study of Mus musculus with 31 samples.

Results

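The SIX-, EYA- and DLX-family genes described here are 9 mouse genes, Six2, Six4, Six5, Eya1, Eya2, Eya4, Dlx1, Dlx2 and Dlx5, out of 21938 annotated protein-coding genes. They form a list of names. The SIX- and DLX-family genes are relatives of SIX6 and DLX6, 2 of the 13 transcription factors (TFs) overexpressed in the study, and the EYA genes encode partners of SIX-family proteins. The rule for the list uses no peak value, although the genes were chosen with earlier results of these data known. For each gene, ATAC-seq peaks were counted within 1 kb of any annotated transcription start site (TSS), in the rest of the gene, and in the window from 50 kb before to 50 kb after it. In ATAC-seq the Tn5 transposase inserts sequencing adapters into exposed DNA, and places where many sequenced fragments overlap are called as peaks of accessible chromatin. The study asked how the binding of TFs to mitotic chromosomes relates to their behaviour in interphase, and the ATAC-seq series has 31 samples. Analysed here is the peak list of 1 library made from the parental NIH-3T3 line, mouse embryo fibroblasts without a TF transgene, using 50000 cells, 0.5 µM Tn5 and 12 cycles of PCR. The labels list no doxycycline for this library, whereas the methods give the drug for NIH-3T3 cells in general. The other 30 samples, lines overexpressing 1 of the 13 TFs or expressing rtTA3G alone, all given 500 ng/ml doxycycline for 48 h, were not analysed here. No replicate error and no comparison between conditions can be given from 1 library, so the values describe the accessible chromatin of that library.

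SIX-family proteins are TFs that bind DNA through a homeodomain and bind EYA proteins through a neighbouring conserved domain. EYA proteins do not bind DNA themselves but act as coactivators of SIX-family proteins and as protein phosphatases, and together with PAX and DACH proteins they form a network known from eye, ear, kidney and muscle development. DLX proteins are homeodomain TFs of the branchial arches, ventral forebrain, limbs and skeleton, and their genes lie in pairs that point towards each other. An accessible promoter is common at genes in use but is not a measure of their transcription, and no RNA was measured in this library.

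Of the 9 genes, 6 had a peak within 1 kb of a TSS (Six4, Six5, Eya1, Eya4, Dlx1 and Dlx2), which is 66.7%, against a background of 53.7% over all protein-coding genes. The count was 2 of 3 in each family, with Six2, Eya2 and Dlx5 lacking such a peak. At Eya4 the peak lay at internal starts of noncoding transcripts and not at the 5′ end of the gene. Peaks elsewhere in the gene were found in Six4, Eya1 and Eya4, 3 of 9 genes, where 34.3% of all protein-coding genes had one. Every one of the 9 genes had a peak within 50 kb, as did 84.2% of all protein-coding genes. These shares are a description of 9 named genes and were not tested.

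The promoter sequences of a gene without a peak and of a gene with one are shown first, because base composition did not separate the 2 genes. Six2 had no peak within 1 kb of its TSS and Dlx2 had one. The sequences come from RefSeq (GRCm38.p6, the same build as the peaks), in which 6 of the 9 genes had an entry, and they are cut back to the bases that lie upstream of annotated exons. Both are on the minus strand, from chr17:85688275-85688504 for Six2 and from chr2:71546755-71547004 for Dlx2, and capitals mark each CG dinucleotide.
Six2: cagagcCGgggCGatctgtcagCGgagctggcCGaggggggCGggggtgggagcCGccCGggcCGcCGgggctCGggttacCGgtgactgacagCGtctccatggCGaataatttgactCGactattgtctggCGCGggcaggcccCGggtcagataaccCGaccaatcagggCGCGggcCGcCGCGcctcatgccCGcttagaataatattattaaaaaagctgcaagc
Dlx2: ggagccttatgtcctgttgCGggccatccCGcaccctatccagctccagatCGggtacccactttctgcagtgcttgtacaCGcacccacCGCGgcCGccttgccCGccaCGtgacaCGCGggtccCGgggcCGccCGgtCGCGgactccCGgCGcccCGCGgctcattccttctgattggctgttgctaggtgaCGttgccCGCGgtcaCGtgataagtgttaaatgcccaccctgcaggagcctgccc
Each stretch held 24 CG dinucleotides, at a GC content of 64.8% for Six2 and 66.4% for Dlx2. None of the bases of the Six2 stretch lay under a peak, and 136 bases of the Dlx2 stretch did.

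Over the whole RefSeq promoter windows, 250 bases before to 50 after the start, the promoters of Six2, Six4, Eya4, Dlx1 and Dlx2 were CpG-rich, taken as a GC content over 50% with a ratio of observed to expected CpG above 0.6. Of these 5 genes, 4 had a peak within 1 kb of a TSS, and the background was 82.9% over all protein-coding genes with a CpG-rich promoter. No peak overlapped either CpG-rich promoter of Eya4, whose GC contents were 64.0% and 69.3%. Six5 had a GC content of 66.0% but a CpG ratio of 0.559, so it was not CpG-rich, and it did have a promoter peak, as did 28.9% of protein-coding genes without a CpG-rich promoter. Promoter sequences of Eya1, Eya2 and Dlx5 are not shown.

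Fragments at the summit of a peak were recovered from the fold enrichment and the p-value of the peak, and gave whole numbers within 0.02 for 63454 of the 63456 peaks in the list. Across the list the median was 29 fragments (quartiles 19 and 52), and the fewest were 10. Fold enrichment is the number of summit fragments plus 1, over the number expected locally plus 1, and the lowest expectation was 2.81 fragments. All 10 fibroblast marker genes had a promoter peak, with fold enrichments from 3.41 to 10.5, where 53.7% of all protein-coding genes had one. The lowest of these folds, 3.41, was that of Thy1, whose peak lay past the 3′ end of the gene, 862 bp from an internal start. The peak nearest to the 5′ end of Thy1 was 3158 bp away from it. Of other markers, 1 of 5 epithelial (Krt8, fold 3.25), 1 of 4 blood (Spi1, 3.22) and 1 of 4 muscle markers (Ckm, 4.32) had a promoter peak. None of the 4 neuronal, 4 retina and lens and 2 inner ear markers did.

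**Figure D1:**
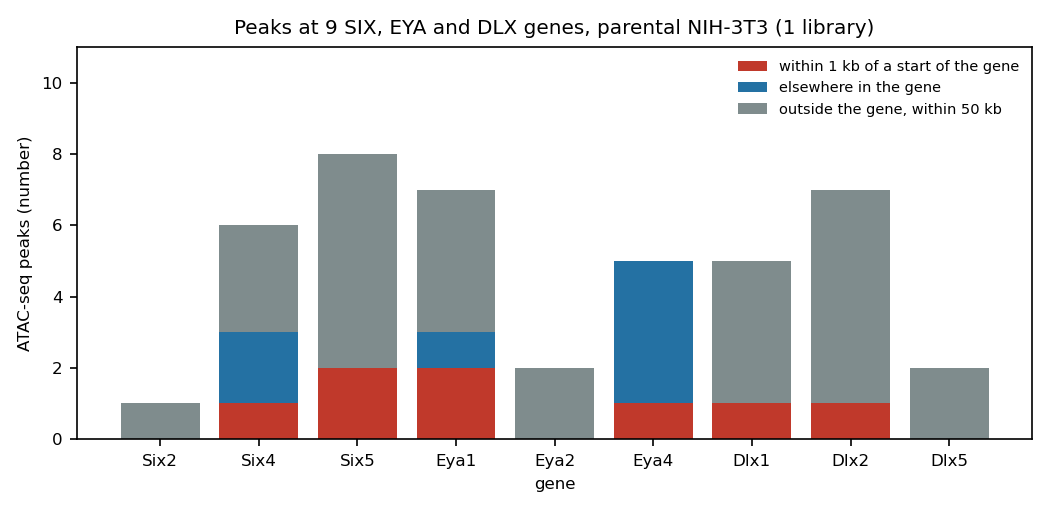
Number of ATAC-seq peaks (vertical axis) at each of the 9 genes (horizontal axis) in the 1 library of parental NIH-3T3 cells, split into peaks within 1 kb of a start of the gene, elsewhere in the gene, and outside the gene within 50 kb. The totals run from 1 peak at Six2 to 8 at Six5, and Six2, Eya2 and Dlx5 have peaks outside the gene only.

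The 9 genes had a median of 5 peaks in their windows, equal to the median of 5 over all protein-coding genes (quartiles 2 and 9). Six5 had the most, with 8 peaks, followed by Eya1 and Dlx2 with 7 each and Six4 with 6. Eya4 and Dlx1 had 5 each, Eya2 and Dlx5 had 2 each, and Six2 had 1. Because windows of neighbouring genes overlap, these 43 assignments came from 38 different peaks, of which 17 were within 1 kb of some gene's TSS and 21 were not. In the plot of peak counts by gene, none had more than 2 peaks at its own starts. The flanks of 50 kb are far larger than the 1 kb around starts, so counts in them are not compared with those at starts. Some peaks lay near the 50 kb limit. The farthest inside was 49848 bp from Eya1, another inside was 49685 bp from Six5 and counts among its 8, and the nearest outside was 50409 bp from Six5. For the 1 kb limit, the farthest promoter peak was 524 bp from a start of Eya1, and the nearest peak beyond it 1380 bp from a start of Six4.

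The promoter peaks of the 6 genes were of low to medium height. Their highest fold enrichment per gene ran from 4.99 at Dlx2 to 10.9 at Dlx1, with a median of 7.82, and the median over the 11788 protein-coding genes with a promoter peak was 9.86 (quartiles 7.27 and 12.4). On that scale Dlx1 stood at the 61.2nd percentile, Eya1 at the 56.2nd, Six4 at the 37.0th, Eya4 at the 23.7th, Six5 at the 16.0th and Dlx2 at the 9.24th. Of the 6 genes, 4 thus lay under the median of accessible promoters, and 3 of these under the lower quartile.

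**Figure D2:**
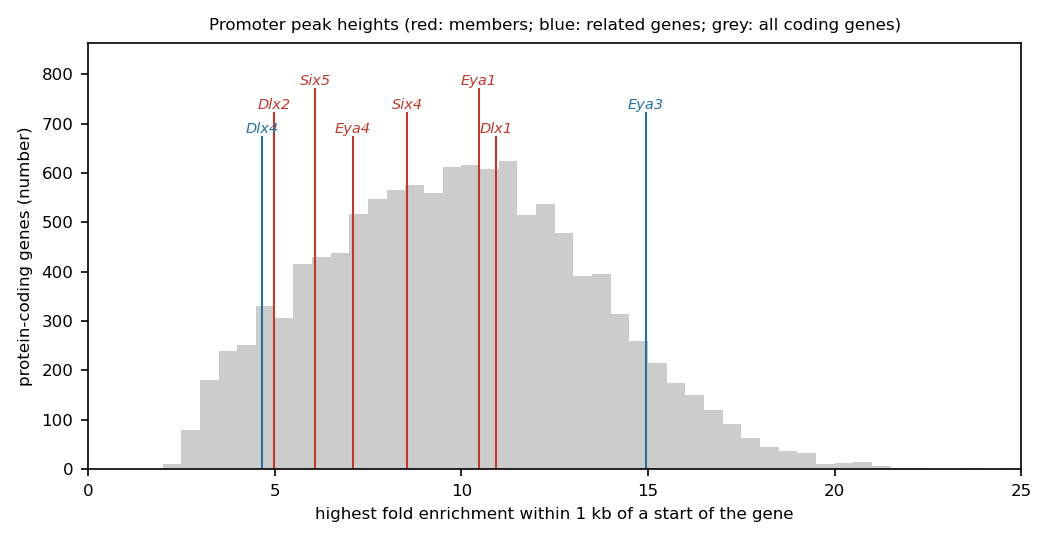
Histogram of the highest fold enrichment within 1 kb of a start (horizontal axis) over the 11788 protein-coding genes with a promoter peak (vertical axis, number of genes), with red lines for the 6 genes described here and blue lines for the related genes Dlx4 and Eya3. The red lines run from 4.99 at Dlx2 to 10.9 at Dlx1, and Eya3 stands to the right of all of them at 15.0.

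The 8 promoter peaks of these genes had between 16 and 92 fragments at the summit, with a median of 49, equal to the median of 49 over all peaks within 1 kb of a TSS. In order, the Dlx1 peak had 92 fragments (95% Poisson interval 74.2 to 113), Dlx2 had 61 (46.7 to 78.4), the 5′ end of Eya1 had 55 (41.4 to 71.6) and the upstream peak of Six5 had 52 (38.8 to 68.2). Six4 followed with 46 (33.7 to 61.4), then the downstream peak of Six5 with 32 (21.9 to 45.2), Eya4 with 26 (17.0 to 38.1) and the internal start of Eya1 with 16 (9.15 to 26.0). The interval of each peak overlapped that of the next in this order. The interval of Dlx1 did not overlap those from the 5′ end of Eya1 downwards. These intervals cover counting error only. Duplicate reads had been dropped before peaks were called, and neither PCR copies that remained nor the spread between cultures are in the intervals. Order by fragments and order by fold differed: Dlx2 ranked second by fragments but had the lower fold of 4.99, with a local expectation of 11.4 fragments, whereas the 5′ end of Eya1 had an expectation of 4.35 and a fold of 10.5.

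**Figure D3:**
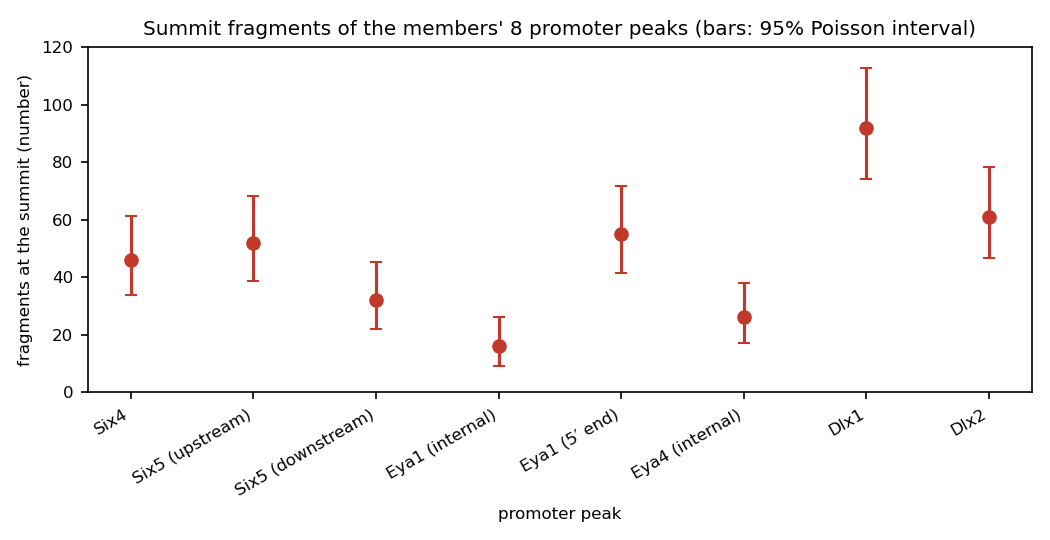
Number of fragments at the summit (vertical axis) of each of the 8 promoter peaks (horizontal axis), with exact 95% Poisson intervals as bars. Dlx1 is the highest with 92 fragments and the internal start of Eya1 the lowest with 16, and the bars of neighbours in the order of height overlap.

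In the SIX-family group, Six4 had a peak over its starts, Six5 had peaks on either side of its start, and Six2 had none nearby. Six4, which takes part in the formation of skeletal muscle, lies on the minus strand of chromosome 12 (mm10, 73099609 to 73113456). Its promoter peak at 73113165 to 73113631 covered both annotated starts, with a fold of 8.55 and a −log10 q of 27.8. The gene held 2 more peaks. The one in an exon at 73107911 to 73108138 had a fold of 6.95, a −log10 q of 17.9 and 34 fragments. The intronic one at 73111728 to 73112045 had a low fold of 3.06, at the 4.32nd percentile of peaks away from any TSS. Its 18 fragments equalled the lower quartile of those peaks. Among the listed genes with peaks beyond the promoter, Six4 had the most such peaks per length, with 2 in 13848 bp or 1.44 per 10 kb. The values were 0.161 for Eya4 and 0.0708 for Eya1, which are far longer genes.

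The promoter of Six4 also held the only match among the members' RefSeq promoters to TCAGGTTTC, the MEF3 sequence that SIX-family proteins are known to bind. Searched on both strands, these letters occurred in 0.429% of the 32851 RefSeq promoters of this length. The match is shown within its surrounding bases, from the minus strand of chr12:73113326-73113354, with capitals marking MEF3, here reading as its reverse complement.
Six4: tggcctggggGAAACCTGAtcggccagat
All 29 bases lay under the promoter peak, in the first exon of the gene. No summit window of any member's peak held these letters. The match is of letters, and binding of a SIX-family protein there was not measured.

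The highest fold enrichment in any of the 9 windows was found upstream of Six4. The peak at 73147227 to 73147805, with its summit 33989 bp before the 5′ end of Six4 and inside an intron of Mnat1, had a fold of 15.3, a −log10 q of 51.8 and 59 fragments (44.9 to 76.1). Its fold stood at the 97.7th percentile of peaks away from any TSS. Mnat1 encodes an assembly factor of the CDK-activating kinase, and its own TSS had a peak with a fold of 6.57.

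Six5, whose loss causes cataracts in mice and which sits beside the myotonic dystrophy kinase gene Dmpk, lies on the plus strand of chromosome 7 (19094594 to 19098549). Its single annotated start fell into a gap of 248 bp between peaks. The upstream peak at 19093864 to 19094387 had a fold of 6.08, a −log10 q of 23.1 and its summit 521 bp before the start. The downstream peak at 19094636 to 19095305 had a fold of 3.67 and a −log10 q of 8.13, with the summit 513 bp inside the gene. The start itself was thus not under a peak, although peaks came within 207 bp on one side and 42 bp on the other. The gap between Dmpk and Six5 is 773 bp, so the upstream peak lies in the short stretch between both genes.

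The other 6 peaks in the window of Six5 were all within 1 kb of a neighbouring gene's TSS. They belonged to Sympk (fold 3.71), Dmwd (10.6), Dmpk (4.14 and 3.21, the latter also near Mir3100) and Fbxo46 (11.6 and 13.3). The highest of these, in Fbxo46, had a −log10 q of 81.2 and 107 fragments, the highest −log10 q in any of the 9 windows. Six5 therefore had the most peaks in its window but no peak away from TSSs. The RefSeq promoter of Six5 held the AP-1 heptamer TGACTCA, the sequence bound by FOS and JUN dimers, which occurred in 5.20% of all RefSeq promoters. It is shown without the exonic bases, from the plus strand of chr7:19094294-19094543, with the heptamer, here as its reverse complement, in capitals.
Six5: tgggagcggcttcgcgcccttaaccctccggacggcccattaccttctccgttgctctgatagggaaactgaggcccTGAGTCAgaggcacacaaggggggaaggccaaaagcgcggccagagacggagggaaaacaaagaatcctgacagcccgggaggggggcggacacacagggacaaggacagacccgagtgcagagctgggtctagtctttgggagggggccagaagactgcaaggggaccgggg
Of these bases, 94 lay under the upstream peak, and the heptamer, which starts at position 78 of the sequence, was among them.

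Six2, which keeps the nephron progenitors of the kidney in their renewing state, lies on the minus strand of chromosome 17 (85684277 to 85688274). The only peak in its window lay between genes on the 3′ side, at 85665025 to 85665198, 23056 bp from the nearest start of Six2. This peak had a fold of 6.04, a −log10 q of 10.8 and 22 fragments (13.8 to 33.3). On the 5′ side the next peak was 117869 bp away, so that the 5′ end of Six2 lay in a stretch of 140944 bp without a peak. The same peak was the only one in the span of 74667 bp from Six3 to Six2. Its summit window is shown because it is the only accessible sequence called near Six2, from the minus strand of chr17:85665018-85665218, with the RUNX hexamer TGTGGT, here as its reverse complement, in capitals.
Six2 3′ side: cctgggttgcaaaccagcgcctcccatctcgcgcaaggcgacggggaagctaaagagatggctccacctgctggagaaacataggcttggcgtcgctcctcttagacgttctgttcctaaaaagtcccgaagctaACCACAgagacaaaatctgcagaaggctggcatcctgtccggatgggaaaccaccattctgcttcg
The peak covered 174 of these bases, and they held no AP-1 heptamer.

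**Figure D4:**
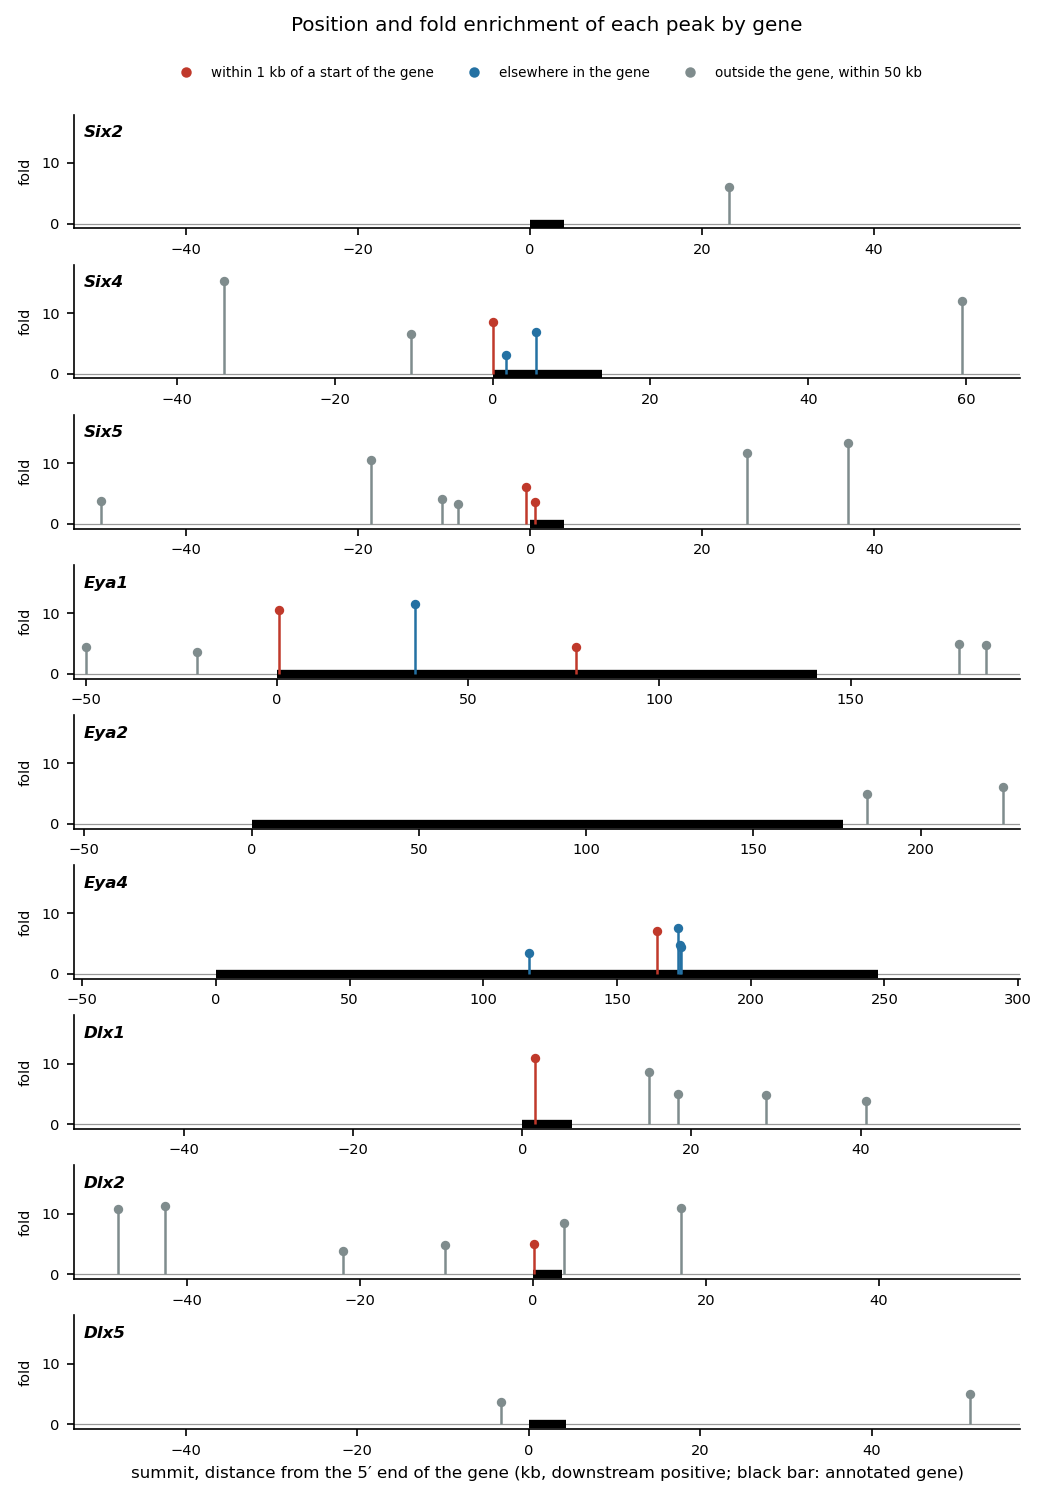
Peaks around each of the 9 genes, drawn as lines at the distance of the summit from the 5′ end of the gene (horizontal axis, kb, downstream positive) with the fold enrichment as height (vertical axis), and the annotated gene as a black bar. The scale of the horizontal axis differs between genes. Of the 5 peaks at Eya4, 4 lie 165160 to 173992 bp from the 5′ end and 1 lies at 117061 bp, those of Dlx5 and Six2 outside the gene, and the highest line is 33989 bp upstream of Six4.

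The EYA genes are long, and they differed in where along the gene chromatin was accessible. Among protein-coding genes of at least 100 kb, 83.7% had a peak in the gene away from its starts, and the median was 3 such peaks (quartiles 1 and 7). Eya4 had 4, Eya1 had 1 and Eya2 had none. In the 50 kb windows the counts were 7 for Eya1, 5 for Eya4 and 2 for Eya2, where the median of genes of this length was 8 (quartiles 4 and 14).

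Eya1, mutated in branchio-oto-renal syndrome, spans 141282 bp on the minus strand of chromosome 1 (14168954 to 14310235). Among the EYA genes in the list it was the only one with a peak at its 5′ end, and the related gene Eya3 also had one. The 5′ peak of Eya1, at 14309589 to 14310326, lay within 1 kb of 5 of the 9 annotated starts, with a fold of 10.5 and a −log10 q of 37.8. A second, lower promoter peak at 14232016 to 14232232 lay 524 bp from an internal coding start, with a fold of 4.46 and a −log10 q of 5.79. Between them, a peak over an exon at 14273747 to 14274363 was higher than either, with a fold of 11.5, a −log10 q of 43.1 and 59 fragments (44.9 to 76.1). It stood at the 90.2nd percentile of fold among peaks away from any TSS. Its counting interval overlapped that of the 5′ peak. The 4 peaks outside the gene were lower, with folds from 3.68 to 4.99 and 13 to 18 fragments.

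Eya4, mutated in hereditary deafness, is the longest of the 9 genes with 247824 bp on the minus strand of chromosome 10 (23102963 to 23350786). No peak was called within 116994 bp of its 5′ end, which lay in a stretch of 549333 bp without a peak. All 5 peaks in its window were inside the gene, and the nearest peak outside was 326624 bp away. The peak counted as a promoter peak, at 23185538 to 23185715, covered internal starts annotated as processed transcripts, with its summit 165160 bp downstream of the 5′ end. It was 178 bp wide, with a fold of 7.09 and a −log10 q of 14.5. When starts of protein-coding transcripts alone were used, Eya4 had no promoter peak. A group of 3 intronic peaks lay about as far down the gene, with summits 172934 to 173992 bp from the 5′ end. Their folds were 7.62, 4.73 and 4.46, with 28, 17 and 16 fragments. The remaining intronic peak, 117061 bp from the 5′ end, had a fold of 3.41 and 12 fragments (6.20 to 21.0), the fewest of all 38 peaks.

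The sequences of the highest of the 3 clustered peaks and of the peak at the internal starts are shown because together they are the most accessible places in Eya4. Both are on the minus strand, from chr10:23177752-23177952 and from chr10:23185607-23185726, the latter without the exonic bases, and capitals mark the AP-1 heptamer.
Eya4 intron: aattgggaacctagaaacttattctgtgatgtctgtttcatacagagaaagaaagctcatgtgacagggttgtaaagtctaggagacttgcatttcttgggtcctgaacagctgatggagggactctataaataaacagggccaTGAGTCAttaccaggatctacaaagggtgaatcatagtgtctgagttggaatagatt
Eya4 start: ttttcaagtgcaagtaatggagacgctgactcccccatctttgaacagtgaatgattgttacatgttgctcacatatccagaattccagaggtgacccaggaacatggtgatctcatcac
The intronic window had a GC content of 40.8% and no CG dinucleotide, and the stretch at the internal starts had 44.2% and 1 CG dinucleotide. Neither was CpG-rich, unlike the promoters at the 5′ end of Eya4, which had no peak.

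Eya2, a coactivator of SIX-family proteins expressed in developing muscle and sensory organs, spans 176696 bp on the plus strand of chromosome 2 (165595032 to 165771727) without any peak inside it. Its 5′ end lay in a stretch of 267094 bp without a peak, 83108 bp from the nearest one. Both peaks in the window lay beyond the 3′ end. The first, at 165779019 to 165779182, had a fold of 4.96, a −log10 q of 7.64 and 19 fragments. The second, at 165819489 to 165819940 in an intron of Zmynd8, had a fold of 6.17 and 27 fragments. Both summit windows matched the CTCF consensus, which occurred in 10.9% of all peaks away from TSSs.

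Of the DLX genes in the list, Dlx1 had 5 peaks in its window, Dlx2 had 7 and Dlx5 had 2. The median over all protein-coding genes was 5, and every peak in the Dlx1 window was also in that of Dlx2. Dlx1 and Dlx2 direct the formation of inhibitory interneurons in the ventral forebrain and pattern the branchial arches. They lie tail to tail on chromosome 2, Dlx1 on the plus strand (71528113 to 71533981) and Dlx2 on the minus strand (71543408 to 71546754), with 9427 bp between them. The Dlx1 peak at 71528995 to 71530265 was the widest of the 38 peaks, with 1271 bp. It began 882 bp inside the gene, lay within 1 kb of all 6 annotated starts and also overlapped antisense transcripts, which ATAC-seq cannot tell from Dlx1. Its fold was 10.9 and its −log10 q 62.3. The Dlx2 peak at 71546108 to 71546890 covered the 5′ end of the gene, with a fold of 4.99 and a −log10 q of 22.0.

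Between both genes lay the peak with the most fragments of all 38, at 71542865 to 71543295 just past the 3′ end of Dlx2. It had 111 fragments (91.3 to 134), a −log10 q of 62.5 and, with a local expectation of 12.1 fragments, a fold of 8.53. Its interval overlapped that of the Dlx1 promoter peak and did not overlap that of the Dlx2 promoter peak. Upstream of Dlx2 were 2 low peaks, with folds of 4.75 and 3.83, and farther out 2 high ones. The summit of the first high one, at 71588998 to 71589646, was 42509 bp from the 5′ end of Dlx2, with a fold of 11.2 and 68 fragments (52.8 to 86.2). The summit of the second, at 71594469 to 71595163, was 47972 bp away, with a fold of 10.8 and 65 fragments (50.2 to 82.8). Both were above the Dlx2 promoter peak in fold, while their intervals of fragments overlapped with its own.

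The summit windows of these 3 peaks, the one between the genes and both high upstream ones, are shown because they are the highest peaks of the pair away from TSSs and all hold the AP-1 heptamer, in capitals. They are given on the minus strand, that of Dlx2, from chr2:71543013-71543213 between the genes, and from chr2:71589163-71589363 and chr2:71594626-71594826 upstream of Dlx2.
Dlx1-Dlx2: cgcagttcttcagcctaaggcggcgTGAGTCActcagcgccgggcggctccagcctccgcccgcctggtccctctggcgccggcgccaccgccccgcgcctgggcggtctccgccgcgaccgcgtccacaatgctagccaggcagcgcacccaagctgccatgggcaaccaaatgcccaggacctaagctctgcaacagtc
Dlx2 upstream 1: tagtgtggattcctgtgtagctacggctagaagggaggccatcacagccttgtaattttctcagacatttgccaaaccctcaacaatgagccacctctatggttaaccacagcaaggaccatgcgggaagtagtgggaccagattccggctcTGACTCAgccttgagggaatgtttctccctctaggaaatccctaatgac
Dlx2 upstream 2: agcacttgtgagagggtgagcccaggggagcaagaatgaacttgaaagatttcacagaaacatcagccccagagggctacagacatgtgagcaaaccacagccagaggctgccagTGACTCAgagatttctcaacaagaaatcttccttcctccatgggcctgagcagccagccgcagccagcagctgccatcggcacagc
The window between the genes had a GC content of 70.6% and 21 CG dinucleotides, whereas the upstream windows had 49.8% and 54.7%, with 3 and 2 CG dinucleotides. The intergenic peak thus had the base composition of a promoter peak, although no start was annotated within 1 kb.

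Dlx5, a regulator of bone formation and of the face and limbs, lies on the minus strand of chromosome 6 (6877805 to 6882085) and had no peak in the gene or within 1 kb of its 3 starts. The nearest peak, at 6885150 to 6885412, began 3065 bp upstream of the 5′ end. It was low, with a fold of 3.68, a −log10 q of 3.61 and 13 fragments (6.92 to 22.2). The other peak in the window lay 51352 bp downstream of the nearest start, in an intron of the antisense gene Dlx6os1 and within 1 kb of an internal start of that gene, with a fold of 4.99 and 18 fragments. No peak was called in the 18752 bp from Dlx6 to Dlx5, and 0.404% of that span with 50 kb on either side was under peaks. For the span from Dlx1 to Dlx2, which has nearly the same length of 18642 bp, this share was 3.54%, with 3 peaks inside.

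The AP-1 heptamer was the most frequent of the searched motifs at the members' peaks outside promoters. It was found in 14 of the 21 summit windows (the summit with 100 bases to either side, both strands) away from any TSS, or 66.7%, and in 36.5% of all 47192 such peaks. It was in 5 of 5 such peaks at Eya1, 5 of 5 at Dlx2, 3 of which were also in the window of Dlx1, and 2 of 3 at Six4. The single such peak at Dlx5 held it as well, whereas Eya4 had it in 1 of 4, Eya2 in 0 of 2 and Six2 in 0 of 1. The share over the 21 peaks therefore came mainly from the windows of Eya1 and Dlx2. Neighbouring peaks share a locus, and the difference from all peaks was not tested.

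Motifs of other factors were rarer. The TEAD hexamer GGAATG was in 7 of the 21 windows (33.3%) and in 16.9% of all peaks away from TSSs, and the RUNX hexamer TGTGGT in 6 of 21 (28.6%) and in 22.7%. The CTCF consensus was in 3 of 21 (14.3%), at Eya2 and Eya4, and in 10.9%. The windows held 0 matches to TAATTA, a core letter string of homeodomain proteins such as DLX, as well as 0 to the CRE TGACGTCA, the ETS sequence CCGGAAG, the E-box CACGTG, MEF3 and the NFI sequence. Motifs were counted independently, so that overlapping letters could count for more than 1. In the 8 promoter peaks, AP-1 was found once, at the internal start of Eya1, TAATTA once, at Dlx2, and the CTCF consensus in 2, at Dlx2 and the upstream peak of Six5. Among all peaks within 1 kb of a TSS, AP-1 occurred in 11.6%, TAATTA in 1.25% and CTCF in 11.7%. The other searched motifs had 0 matches in the 8 windows.

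The exonic peak of Eya1 and the nearer upstream peak of Dlx2 held AP-1, TEAD and RUNX letters together, and the upstream peak of Six4 held AP-1 and RUNX. The last is printed as the peak with the highest fold, from the minus strand of chr12:73147345-73147545, with AP-1, here as its reverse complement, in capitals.
Six4 upstream: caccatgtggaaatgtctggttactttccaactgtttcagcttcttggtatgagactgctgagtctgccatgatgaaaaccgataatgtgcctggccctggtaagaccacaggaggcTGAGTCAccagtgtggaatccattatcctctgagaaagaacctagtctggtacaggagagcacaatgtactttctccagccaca
Its GC content was 47.8%. Over the 21 windows the median GC content was 48.3% and over all peaks away from TSSs 47.3%, while the 8 promoter peaks had 63.4% and all peaks within 1 kb of a TSS 60.7%.

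Of 8 related genes, from these families and their DACH partners, 2 had a promoter peak, and the difference from the 6 of 9 above was not tested. Eya3 had 1 with a fold of 15.0 and a −log10 q of 50.4. Dlx4 had 1 with a fold of 4.66. Six3, which patterns the forebrain and eye, had no promoter peak, and neither did Six6, Dlx3, Dlx6, Dach1 and Dach2. Dlx3, a gene of skin and placenta, had 15 peaks in its window but none within 2868 bp of its start. The DACH genes, which encode corepressors of SIX-family proteins, had no peak in their windows, the nearest being 456841 bp away for Dach1 and 111615 bp for Dach2.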

How the data were processed

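ATAC-seq was analysed in 1 library of parental NIH-3T3 cells. Reads were aligned by the authors to mm10. Those mapping uniquely to chromosomes 1 to 19, X or Y were kept, duplicates were dropped with Picard, and peaks were called on whole fragments of this 1 library, not pooled. The submitters' processing notes name STAR 2.5.3a and MACS2 2.1.1.20160309. The methods describe no Tn5 shift of read ends, and removal of blacklisted and input peaks is stated for ChIP-seq, to which the ATAC-seq methods refer. The authors deposited for each peak a fold enrichment (a ratio), a −log10 p-value, a −log10 q-value and a score, and the fold and the −log10 p and q were used here as deposited. All peaks had a −log10 q of at least 1.30.

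Peaks were assigned with the GENCODE M21 annotation. A promoter peak came within 1 kb of any annotated start of the gene, a gene-body peak overlapped the rest of the gene, and the window reached 50 kb to either side. Summit fragments were solved from fold and −log10 p, a step tested on simulated data, and given exact 95% Poisson intervals, which cover counting error only. The reads of the library as a whole are not part of the list. Of 500 RefSeq promoter sequences compared with the genome, 500 were identical. Motifs were searched on both strands in windows of the summit with 100 bases to either side. CTCF was searched as its consensus and NFI as half-sites TTGGC and GCCAA 5 bases apart.

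The 9 genes, the lists and the alternatives were chosen with earlier results of these data known. Named were all members, 8 related genes, those PAX, MSX and TLE genes with a promoter peak with Pax3 and Pax6, and neighbours of members. A further gene of the related list is not reported here. Promoter peaks were to be given in full, with up to 5 further peaks per gene. With 1 library no test was made, no likeness between genes across samples was computed, and protein sequences were not analysed here. The tools were Python 3.11.15 with pysam 0.24.0, pandas 2.3.3, NumPy 2.4.6, matplotlib 3.10.9 and SciPy 1.17.1. As alternatives, peaks were limited to a fold of at least 5 or a q of 0.01 or 1e-05, and the other settings were different distances and windows, summits in place of peak intervals, overlap with the start itself and protein-coding transcripts only.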

Additional observations from a re-analysis of the deposited data

How the results depend on the processing

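The count of 6 genes with a promoter peak was between 5 and 7 under the 8 alternatives. It was 5 (55.6%) with a fold of at least 5, which lost Dlx2, where 48.8% of all protein-coding genes had such a peak. Overlap of the start itself also gave 5, losing Six5, with 48.7% of all protein-coding genes. Protein-coding transcripts only gave 5 as well, losing Eya4, with 52.0% of all protein-coding genes. Within 5 kb the count was 7 (77.8%), which added Dlx5, with 62.8% of all protein-coding genes. A fold of at least 5 also lowered the 7 gene-body peaks to 3 and the 38 peaks within 50 kb to 19. Windows of 10 kb and 100 kb gave 21 and 65 peaks. Of the related genes, 4 had a peak within 5 kb of a start and 1 had a promoter peak with a fold of at least 5, in place of 2. The other 24 values stayed within 1.5 times of those reported. No paired analysis was possible because the list holds 1 library. No peak in the list had under 10 fragments at this depth, and the number needed for a call rises with the local expectation. A gene without a peak is therefore one where none was detectable, not one shown to be closed.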

Other observations

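Among genes of the PAX, MSX and TLE families, which act with or against SIX-, EYA- and DLX-family proteins, 5 of 13 (38.5%) had a promoter peak. The share over all protein-coding genes was 53.7%, and the difference was not tested. Pax3, a TF of the neural crest and of muscle precursors, had 1 with a fold of 11.4 and a −log10 q of 68.6, with 6 more peaks in the gene and 13 in the window. Pax9, a TF of the pharyngeal pouches and teeth, had a highest fold of 10.8. Of the Groucho-type corepressors, Tle1 had a highest fold of 17.1, Tle3 of 6.48 and Tle4 of 14.3. Pax6, the eye regulator, had no peak in its window, and the nearest was 52192 bp from a start.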
